A study of Mus musculus with 6 samples.

Results

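The mouse collagen genes were taken as every gene in the expression table whose symbol is Col, a number, the letter a and a number. The rule gave 44 of 19489 genes, one gene for each collagen alpha chain. By class these were 11 fibrillar genes, 6 type IV genes of the basement membrane, 9 FACIT genes, 6 type VI genes, 4 transmembrane genes, 3 short-chain genes, 2 multiplexin genes, the anchoring fibril gene *Col7a1*, and *Col26a1* and *Col28a1*, which fit no larger class.

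Messenger RNA was sequenced in 6 libraries of mouse embryonic stem cells (ESCs), with 3 from Con ESCs and 3 from *Dppa3* OE ESCs, all grown in medium with serum and LIF. Con ESCs are labelled wild type and, per the methods of the study, carried an empty vector. *Dppa3* OE ESCs carried the *Dppa3* coding sequence behind a CAG promoter, and the methods describe puromycin selection and picking of colonies for such cells. The libraries are Con-1, Con-2 and Con-D7, and OE-1, OE-2 and OE-D7, and no source explains the D7 label. The sources do not say which ESC line was sequenced, how many clones it came from, or whether each library had its own culture. The p-values therefore cover only the variation among these libraries, which may be technical. The strain label differs between all 6 libraries and runs in sequence, so it may be a spreadsheet fill and not a real difference. Taken as written, strain and group cannot be told apart.

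*Dppa3*, the overexpressed gene, was at 6.09 FPKM in Con-1, 3.89 in Con-2 and 26.22 in Con-D7, against 278.79, 278.82 and 130.96 FPKM in OE-1, OE-2 and OE-D7, so every OE library lay above every Con library. FPKM is the number of fragments scaled by transcript length and by sequencing depth. Estimated reads ran from 17408954 to 18176939 per library. *Pou5f1*, the ESC transcription factor, lay between 311.64 and 682.98 FPKM in all 6 libraries.

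Collagens are secreted proteins in which 3 alpha chains wind into a triple helix. Fibrillar collagens pack into the fibrils of connective tissue, type IV collagens form the sheet of the basement membrane, and the remaining classes decorate fibrils, link them to other structures or span the cell membrane. The chains are hydroxylated and folded in the endoplasmic reticulum with the help of the chaperone *Serpinh1*, and then trimmed and cross-linked outside the cell. Early embryonic cells make basement membrane, and fibrillar collagen is best known from mesenchymal cells.

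In the libraries without the D7 label, collagen mRNA was mostly *Col18a1*, and fibrillar collagen mRNA was low. The 44 genes summed to 123.2 and 104.26 FPKM in Con-1 and Con-2, and to 104.35 and 94.95 FPKM in OE-1 and OE-2. The sum was 247.89 FPKM in Con-D7 and 401 in OE-D7, both above the other libraries. *Col18a1* made up 74.6% and 51.8% of the sum in Con-1 and Con-2 and 69.3% and 50.5% in OE-1 and OE-2, against 39.3% in Con-D7 and 19.7% in OE-D7. *Col1a1*, the main chain of type I collagen, made up between 0.747% and 1.74% of the sum in the 4 libraries without the label, 15.3% in Con-D7 and 32.2% in OE-D7. Since these are whole cultures, fewer cells of a type and less RNA per cell cannot be told apart.

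The summed level of the 11 fibrillar genes was 9.12 and 13.93 FPKM in Con-1 and Con-2 and 9.98 and 12.8 in OE-1 and OE-2, and it was 71.44 in Con-D7 and 188.66 in OE-D7. The mean of the D7 pair was 11.4 times that of the others. For the 6 type IV genes the sums were 7.94, 14.08, 8.43 and 12.13 FPKM in Con-1, Con-2, OE-1 and OE-2, and 47.89 and 90.7 in Con-D7 and OE-D7, a ratio of 6.51. For the other 27 genes the D7 pair was 1.48 times the mean of the rest. That last sum was dominated by *Col18a1*, and it was higher in Con-D7 (128.56 FPKM) than in OE-D7 (121.64 FPKM), the reverse of the fibrillar and type IV sums.

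**Figure D1:**
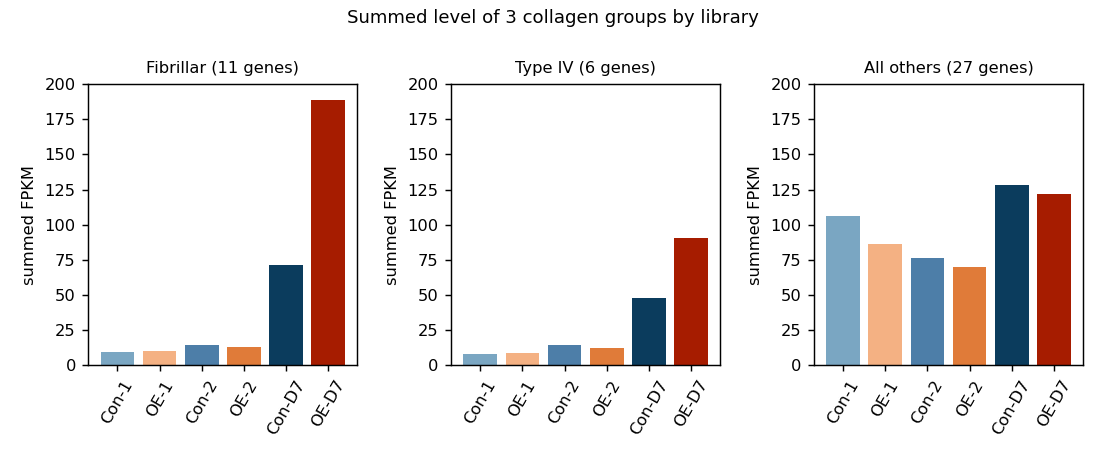
Summed FPKM of 11 fibrillar genes, 6 type IV genes and the other 27 collagen genes in each of 6 libraries, 1 bar per library on a common linear axis from 0. The fibrillar sum is 71.44 in Con-D7 and 188.66 in OE-D7 against at most 13.93 in the other libraries, while the sum of the other 27 genes differs far less.

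D7 against the other 4 libraries was the comparison with the most collagen calls. Both D7 libraries lay above all 4 others for 30 of the 44 collagen genes (23% of all genes), both lay below for 1, *Col6a4* (17.9% of all genes), and the ranges overlapped for 13. The mean FPKM filter of 0.5 left 28 collagen genes for edgeR's quasi-likelihood test, and 16 of them rose, against 6.77% of all genes tested, while 0 fell, against 3.06%. At an unadjusted p under 0.05, 19 collagen genes were higher (16.4% of all genes) and 0 were lower (13.5% of all genes) in that fit, and DESeq2 also called 0 lower. The median log2 fold change was 1.67 over the 28 collagen genes and −0.03 over all genes. The 28 include 11 that passed the filter only through the D7 libraries, and the median was not taken without them. With no filter it was 1.60 over all 44 collagen genes, many of them with few reads.

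The filter itself favours genes that are high in one group. Of the 17 collagen genes whose mean reached 0.5 FPKM in the 4 libraries without the label, 7 rose, against 5.42% of all such genes. These were *Col1a1*, *Col2a1*, *Col5a1*, *Col11a1*, *Col4a1*, *Col4a2* and *Col9a2*. The other 11 passed only through the D7 libraries, and 9 of them rose, where 51.1% of all such genes did. The 9 were *Col1a2*, *Col3a1*, *Col5a2*, *Col4a5*, *Col12a1*, *Col16a1*, *Col6a1*, *Col6a2* and *Col8a1*. With no filter, 20 of 44 collagen genes rose, against 5.95% of all genes. The 4 added were *Col4a6*, *Col6a3*, *Col8a2* and *Col23a1*, each with a mean FPKM below 0.5.

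The count depended on the libraries, as only 1 library of each genotype carries the label. Without OE-D7, 0 collagen genes were called by edgeR (12 higher at an unadjusted p under 0.05) and 0 genes in the whole table (805 higher at that p), and without Con-D7 only *Col1a1* was called. Without OE-1 the count was 9 of 29 tested, against 2.60% of all genes, and without OE-2 it was 10 of 28, against 2.23%. With the Con libraries alone the median log2 fold change was 1.43 over 27 collagen genes and −0.04 over all genes. With the OE libraries alone it was 1.86 over 29 collagen genes and −0.02 over all genes. Both fits hold 1 D7 library, so their calls are not counted here. With a mean FPKM of at least 2 only 9 collagen genes were tested and 6 rose, against 6.24% of all genes. A fit with the replicate number as a block, which takes Con-1 with OE-1, Con-2 with OE-2 and the D7 libraries with each other, called 21 collagen genes higher, where 25.6% of all genes were called higher. In that fit the D7 pair is a single block, so the difference is judged by the spread within pairs alone and the spread between pairs does not enter. The 5 genes it adds, *Col7a1*, *Col18a1*, *Col20a1*, *Col22a1* and *Col27a1*, are therefore given with that limit.

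**Figure D2:**
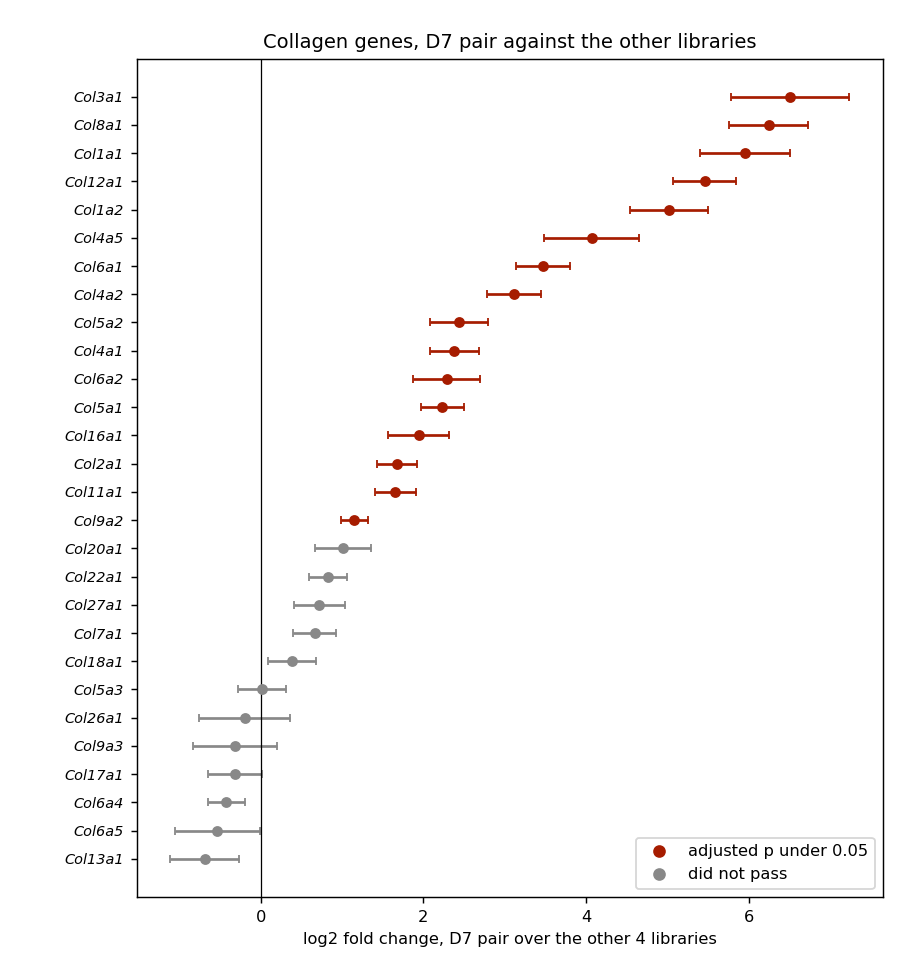
Log2 fold change of the D7 pair over the other 4 libraries for the 28 collagen genes tested, with bars of 1 standard error from edgeR. The 16 genes in red had an adjusted p under 0.05, from *Col9a2* at 1.15 to *Col3a1* at 6.50, and the 12 in grey did not pass.

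Of the fibrillar genes, 7 of 9 tested rose in the D7 pair, led by the chains of types I and III, which form the bulk of connective tissue fibrils. Of the 7, *Col1a2*, *Col3a1* and *Col5a2* had passed the filter only through the D7 libraries, where 51.1% of all such genes rose. *Col1a1* (chr11:94936224-94953042) was at 0.92 and 1.81 FPKM in Con-1 and Con-2, 0.80 and 1.38 in OE-1 and OE-2, 37.98 in Con-D7 and 129.05 in OE-D7. *Col1a2*, the partner chain of type I collagen, was at 0.13, 0.36, 0.21 and 0.23 FPKM in Con-1, Con-2, OE-1 and OE-2, 4.42 in Con-D7 and 11.86 in OE-D7. *Col3a1*, the chain of type III collagen, was at 0.02, 0.14, 0.03 and 0.03 FPKM in the same 4 libraries, 3.12 in Con-D7 and 7.42 in OE-D7. In all of these the groups were far apart and OE-D7 was the highest library. The log2 fold change was 5.95 (SE 0.56, edgeR adjusted p = 0.0061) for *Col1a1*, 5.02 (SE 0.48, adjusted p = 0.0062) for *Col1a2* and 6.50 (SE 0.73, adjusted p = 0.0097) for *Col3a1*. The low values rest on few reads, as *Col3a1* had 2, 14, 3 and 3 estimated reads in the 4 libraries without the label.

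Type V collagen, which is built into type I fibrils and helps set their width, was already present without the label. *Col5a1* was at 3.19, 5.27, 3.84 and 4.67 FPKM in Con-1, Con-2, OE-1 and OE-2, 14.19 in Con-D7 and 27.03 in OE-D7. *Col5a2* was at 0.57, 0.39, 0.48 and 0.45 FPKM, then 1.66 in Con-D7 and 3.82 in OE-D7. Both rose without overlap of the groups, by 2.23 (SE 0.26, edgeR adjusted p = 0.011) and 2.44 (SE 0.36, adjusted p = 0.018) on the log2 scale. *Col5a3* was at 1.76, 3.53, 2.35 and 3.53 FPKM, 2.66 in Con-D7 and 2.91 in OE-D7, and its D7 values lay inside the range of the others (log2 fold change 0.01, SE 0.29, adjusted p = 0.98).

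The cartilage fibril collagens rose by smaller amounts. *Col2a1*, the type II chain, was at 0.93, 1.36, 0.88 and 1.26 FPKM in Con-1, Con-2, OE-1 and OE-2, 4.37 in Con-D7 and 2.68 in OE-D7. *Col11a1*, a minor chain of cartilage fibrils, was at 0.80, 0.54, 0.77 and 0.72 FPKM, then 1.89 in Con-D7 and 2.69 in OE-D7. The D7 libraries were highest for both, and Con-D7 exceeded OE-D7 for *Col2a1* but not for *Col11a1*. The log2 fold changes were 1.68 (SE 0.25, edgeR adjusted p = 0.018) and 1.66 (SE 0.25, adjusted p = 0.020). *Col27a1*, at 0.62, 0.37, 0.47 and 0.43 FPKM and 0.78 and 0.79 in the D7 pair, did not pass (0.72, SE 0.31, adjusted p = 0.19) and had an adjusted p of 0.016 with the replicate block (0.75), a value that leaves out the difference between pairs 1 and 2. *Col11a2* and *Col24a1* were below 0.5 FPKM in every library.

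Of the 6 type IV genes 3 passed the filter, and all 3 rose. Among them *Col4a5* had passed only through the D7 libraries, where 51.1% of all such genes rose. *Col4a1* and *Col4a2*, whose chains form the common basement membrane network, lie head to head on chromosome 8 in GRCm38.p6. *Col4a1* was at 5.54, 9.75, 5.90 and 8.48 FPKM in Con-1, Con-2, OE-1 and OE-2, 27.76 in Con-D7 and 51.44 in OE-D7. *Col4a2* was at 2.24, 4.04, 2.32 and 3.27 FPKM, then 17.69 in Con-D7 and 35.25 in OE-D7. The groups did not overlap, and the log2 fold changes were 2.38 (SE 0.30, edgeR adjusted p = 0.013) and 3.12 (SE 0.34, adjusted p = 0.0088). The ratio of *Col4a1* to *Col4a2* FPKM was 2.47, 2.41, 2.54 and 2.59 in the 4 libraries without the label, and 1.57 in Con-D7 and 1.46 in OE-D7, below all of them.

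The type IV chains with narrower distribution were low. *Col4a5* was at 0.03, 0.22, 0.15 and 0.21 FPKM in Con-1, Con-2, OE-1 and OE-2, 1.80 in Con-D7 and 3.25 in OE-D7 (log2 fold change 4.07, SE 0.58, edgeR adjusted p = 0.017). *Col4a6*, its neighbour across 1274 bases on the X chromosome, was at 0.01, 0, 0.02 and 0.08 FPKM, then 0.50 and 0.66. It was tested only without the filter, where it rose by 4.67 (SE 0.73, adjusted p = 0.016). *Col4a3* and *Col4a4*, which overlap by 114 bases at their starts on chromosome 1, were at most 0.11 FPKM in any library.

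*Col18a1*, a multiplexin of the basement membrane whose end fragment is endostatin, had the highest level of any collagen gene in the 5 libraries other than OE-D7, where *Col1a1* was higher. It was at 91.88 and 53.97 FPKM in Con-1 and Con-2, at 72.29 and 47.99 in OE-1 and OE-2, and at 97.54 in Con-D7 and 78.87 in OE-D7. The ranges overlapped, as OE-D7 lay below Con-1. The log2 fold change of the D7 pair was 0.38 (SE 0.29, edgeR adjusted p = 0.42), and with the replicate block it was 0.44 (SE 0.07, adjusted p = 0.0016), where the difference between pairs 1 and 2 does not enter the error. Pair 1 lay close to the D7 pair, and pair 2 was the one below both. Within each pair OE was below Con, as described further on.

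The bases before the start of 3 of these genes are shown so that the letters near the gene with the largest D7 change, a nonfibrillar gene with a similar change and the most abundant collagen can be compared. They are from RefSeq on GRCm38.p6, written 5′ to 3′ on the strand of the gene, and capitals mark matches on either strand to the CCAAT box (CCAAT), the TATA box (TATAAA), the GC box (GGGCGG) and the TEAD motif (CATTCC). A match on the other strand is printed as its reverse complement.
Col3a1: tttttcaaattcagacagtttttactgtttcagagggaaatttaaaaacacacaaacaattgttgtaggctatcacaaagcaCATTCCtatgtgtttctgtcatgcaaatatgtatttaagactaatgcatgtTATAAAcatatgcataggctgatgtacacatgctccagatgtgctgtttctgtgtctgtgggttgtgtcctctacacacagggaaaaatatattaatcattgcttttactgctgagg
Col8a1: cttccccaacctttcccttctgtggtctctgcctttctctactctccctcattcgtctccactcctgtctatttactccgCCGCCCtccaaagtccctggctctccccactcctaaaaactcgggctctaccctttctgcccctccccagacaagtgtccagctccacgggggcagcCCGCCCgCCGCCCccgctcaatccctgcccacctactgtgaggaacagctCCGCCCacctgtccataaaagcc
Col18a1: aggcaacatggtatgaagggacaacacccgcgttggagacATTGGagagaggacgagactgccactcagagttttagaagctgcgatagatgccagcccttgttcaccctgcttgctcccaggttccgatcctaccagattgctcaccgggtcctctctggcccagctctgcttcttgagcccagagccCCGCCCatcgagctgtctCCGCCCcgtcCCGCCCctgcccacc
The *Col3a1* window is chr1:45311288-45311537 on the plus strand, *Col8a1* is chr16:57754738-57754987 and *Col18a1* is chr10:77166549-77166780, both on the minus strand. The *Col18a1* stretch has 232 bases and leaves out the 18 bases next to its start. A further *Col18a1* start, at which only 9 bases could be printed, with 0 matches, is not shown. *Col3a1* held 1 TEAD motif and 1 TATA box, *Col8a1* held 4 GC boxes, and *Col18a1* held 1 CCAAT box and 3 GC boxes, and no match overlapped another. Of the 44 collagen genes, 35 had a window of 250 bases before to 50 after a start, among them 12 of the 16 that rose. The GC box was in 10 of the 12 and in 55.8% of 15244 genes with windows, the CCAAT box in 6 and 42.6%, the TEAD motif in 2 and 15.4%, and the TATA box in 1 and 11.9%. Each share counts either strand, and a match describes letters only.

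Among the FACIT genes, whose products sit on the surface of fibrils, 3 of 6 tested rose. Of the 3, *Col12a1* and *Col16a1* had passed the filter only through the D7 libraries, where 51.1% of all such genes rose. *Col12a1* was at 0.05, 0.07, 0.04 and 0.14 FPKM in Con-1, Con-2, OE-1 and OE-2, 1.71 in Con-D7 and 4.50 in OE-D7 (log2 fold change 5.46, SE 0.39, edgeR adjusted p = 0.0039). *Col16a1* was at 0.35, 0.53, 0.38 and 0.69 FPKM, then 1.24 and 2.11 (1.94, SE 0.38, adjusted p = 0.036). *Col9a2*, a type IX chain known from cartilage, was at 5.57, 5.73, 4.35 and 4.78 FPKM, then 10.68 and 11.94 (1.15, SE 0.17, adjusted p = 0.017). None of these had overlapping groups. *Col9a3*, which assembles with the *Col9a2* chain, did not follow it, at 1.05, 2.87, 1.10 and 2.56 FPKM and 1.88 and 1.19 in the D7 pair (−0.31, SE 0.51, adjusted p = 0.71).

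The remaining FACIT genes tested had D7 values above the others without passing. *Col20a1* was at 0.35, 0.62, 0.33 and 0.68 FPKM in Con-1, Con-2, OE-1 and OE-2, then 0.90 in Con-D7 and 1.04 in OE-D7. *Col22a1* was at 0.52, 0.63, 0.62 and 0.88 FPKM, then 1.01 and 1.34. Their edgeR adjusted p-values were 0.12 and 0.081, and 0.0027 and 0.0053 with the replicate block, which leaves out the spread between pairs.

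Type VI collagen forms beaded microfilaments from the products of *Col6a1*, *Col6a2* and a longer chain. *Col6a1* was at 0.33, 0.25, 0.32 and 0.28 FPKM in Con-1, Con-2, OE-1 and OE-2, 2.21 in Con-D7 and 4.81 in OE-D7. *Col6a2* was at 0.32, 0.59, 0.28 and 0.43 FPKM, then 1.45 and 2.56. Both rose with no overlap, by 3.47 (SE 0.33, edgeR adjusted p = 0.0062) and 2.28 (SE 0.41, adjusted p = 0.029). The long chain *Col6a3* was at 0.02, 0.07, 0.02 and 0.07 FPKM and at 0.18 and 0.38 in the D7 pair, too low to pass the filter. *Col6a5* was at 0.34, 0.69, 0.51 and 1.31 FPKM and at 0.51 and 0.41 in the D7 pair, inside the range of the others. *Col6a4* was at 0.84, 0.82, 0.72 and 0.87 FPKM and at 0.56 and 0.65 in the D7 pair. It was the only collagen gene with both D7 libraries below all others, and it did not pass (−0.43, SE 0.23, adjusted p = 0.27).

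Of the short-chain collagens, which form hexagonal networks, *Col8a1* was at 0.02, 0.02, 0.01 and 0.02 FPKM in Con-1, Con-2, OE-1 and OE-2, 0.84 in Con-D7 and 2.55 in OE-D7. It rose by 6.24 (SE 0.48, edgeR adjusted p = 0.0047), and its low values stand for 1.21 to 2.01 estimated reads. *Col8a2*, the other type VIII chain, was at 0.15, 0.37, 0.13 and 0.21 FPKM and at 0.89 and 1.16 in the D7 pair, and was tested only without the filter (2.21, SE 0.43, adjusted p = 0.031). *Col7a1*, which forms the anchoring fibrils under skin, was at 0.99, 1.74, 1.12 and 1.67 FPKM, then 1.96 and 2.42. It did not pass (0.66, SE 0.27, adjusted p = 0.16), and its adjusted p of 0.0034 with the replicate block (0.69) leaves out the step from pair 1 to pair 2.

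Of the genes that passed the filter, the transmembrane collagens *Col13a1* and *Col17a1* and the separate *Col26a1* did not pass the test. *Col13a1* was at 1.04, 2.01, 1.05 and 1.71 FPKM in Con-1, Con-2, OE-1 and OE-2, 0.69 in Con-D7 and 1.23 in OE-D7. *Col26a1* was at 1.06, 3.06, 1.21 and 3.66 FPKM, then 1.90 and 1.96. *Col23a1*, also transmembrane, was at 0.10, 0.20, 0.14 and 0.27 FPKM, then 0.62 and 0.75, and was tested only without the filter (1.85, SE 0.38, edgeR adjusted p = 0.036). *Col17a1* was at 0.71, 1.41, 0.84 and 1.09 FPKM, then 0.94 and 0.69. For *Col13a1* and *Col26a1* the libraries numbered 2 were the highest, and Con-D7 was the lowest library for *Col13a1* only. A comparison of the D7 pair with the libraries numbered 2 alone was added after the data were seen. Of 29 collagen genes tested, 4 were lower in the D7 pair by edgeR, a share near that of all genes (1829 of 13992). They were *Col6a5*, *Col9a3*, *Col13a1* and *Col26a1*, with log2 fold changes between −1.04 and −0.74. In the same fit 21 were higher, against 17.7% of all genes.

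**Figure D3:**
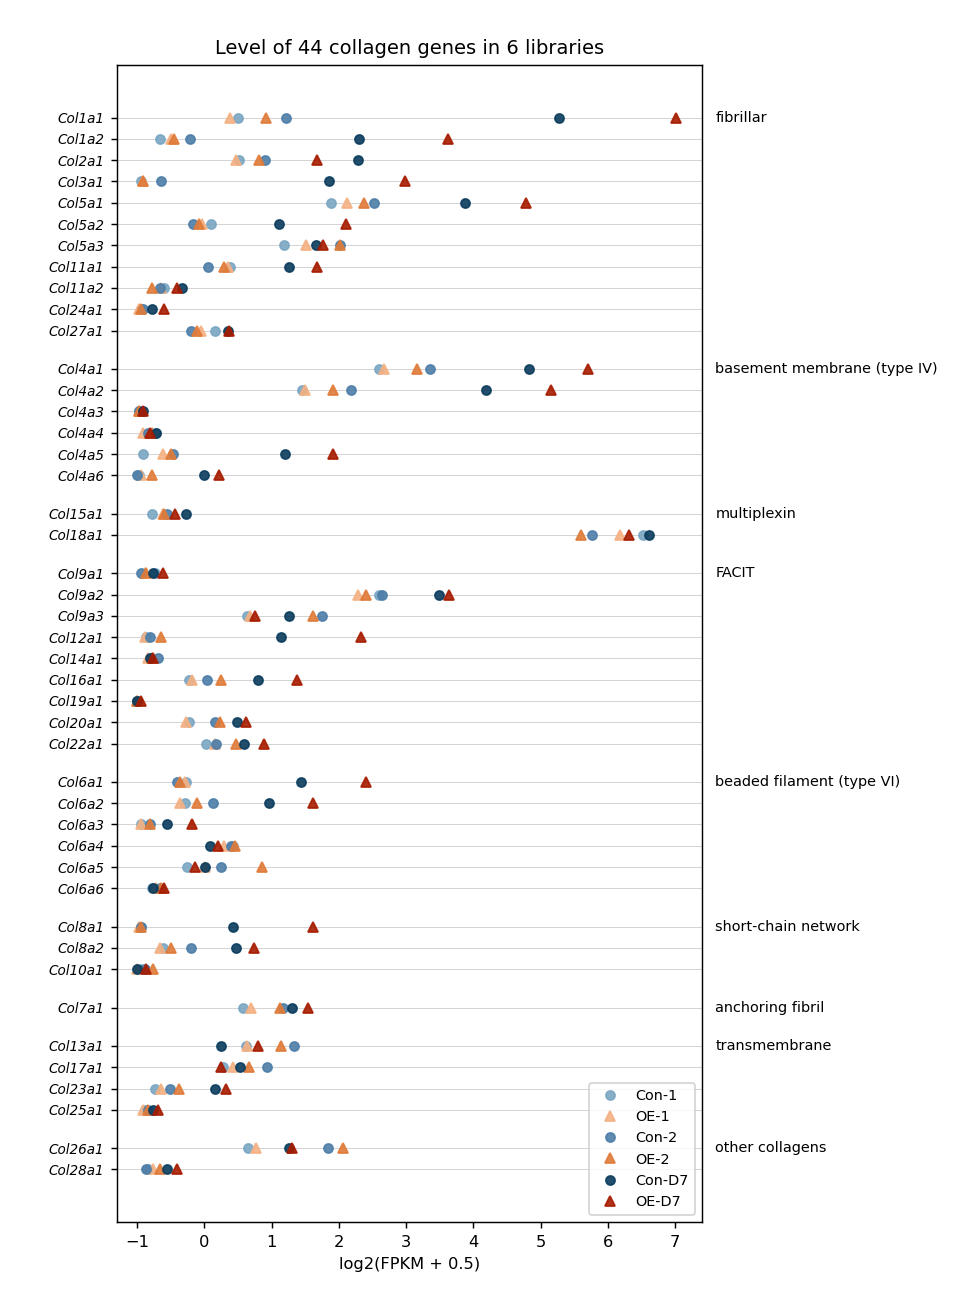
Level of all 44 collagen genes as log2(FPKM + 0.5), with 1 point per library, circles for Con and triangles for OE, grouped by class. The dark points of the D7 pair lie to the right of the other 4 for 30 genes, and *Col18a1* has the highest level in every library except OE-D7.

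The libraries numbered 1 and 2 also differed from each other in collagen mRNA. Library 2 was above library 1 in both genotypes for 29 of the 44 genes, against 45.7% of all genes. It was below in both for 6, which were *Col18a1*, *Col5a2*, *Col6a1*, *Col11a1*, *Col11a2* and *Col27a1*. The share of all genes below in both was not computed, so this count has no background. *Col18a1* went from 91.88 to 53.97 FPKM between libraries 1 and 2 of Con and from 72.29 to 47.99 in OE, while *Col4a1* went from 5.54 to 9.75 and from 5.90 to 8.48. The median log2 ratio of library 2 to library 1 over 28 collagen genes was 0.40 in Con and 0.25 in OE, against 0.11 and 0.09 over all genes. These ratios have no replicate within a genotype and were not tested.

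OE against Con was compared next, first in the libraries numbered 1 and 2. Of 17 collagen genes tested, 0 passed by edgeR in either direction, 0 had an unadjusted p under 0.05, and DESeq2 called 0. The edgeR background was 0% of all genes, of which 58 were higher and 4 were lower at that unadjusted p. DESeq2 called 2 of all genes higher and 0 lower. As edgeR called 0 genes here, *Dppa3* included, this fit cannot tell whether collagen genes changed. With the replicate block 0 collagen genes passed, 1 was higher and 2 were lower by the unadjusted p (4.32% and 3.63% of all genes), and 0.889% of all genes passed. With the block the gene nearest to passing was *Col18a1*, with a log2 fold change of −0.31 (SE 0.07, edgeR adjusted p = 0.066). Without the block *Col9a2* was nearer (edgeR unadjusted p = 0.16), and *Col18a1* was at −0.33 (SE 0.39, unadjusted p = 0.44). Without Con-1 the fit without the block gave 0.17 (SE 0.28) for *Col18a1*, as it then set both OE libraries against Con-2 alone. Within pairs the log2 ratio of FPKM + 0.5 was −0.34 in pair 1, −0.17 in pair 2 and −0.30 in the D7 pair.

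Over all 3 pairs 0 of 28 collagen genes passed by edgeR, against 0% of all genes, and 0 had an unadjusted p under 0.05. DESeq2 called 0 collagen genes, and called 6 of all genes higher and 1 lower. Here too edgeR called 0 genes, *Dppa3* included, so the same limit holds. With the replicate block 0 passed, 4 were higher and 1 was lower by the unadjusted p (4.40% and 4.15% of all genes), and 0.00724% of all genes passed. OE was above Con in every pair for 7 of the 44 genes (18.2% of all genes), and below Con in every pair for 3, *Col18a1*, *Col2a1* and *Col11a2* (8.29% of all genes). For *Col18a1* the log2 fold change over the pairs was −0.34 (SE 0.28, edgeR adjusted p = 1.00), and −0.32 (SE 0.06, adjusted p = 0.21) with the block.

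The D7 pair differed from the others in this comparison. OE-D7 was above Con-D7 for 35 of the 44 collagen genes, below for 8 and equal for 1, and 52.1% of all genes were above. Among the 28 that passed the filter, 6 were higher in OE-D7 by at least 1 in log2(FPKM + 0.5), against 1.07% of all genes, and 0 were lower by as much. Of these 6, 5 had passed the filter only through the D7 libraries, as did 11 collagen genes in all, and 13.9% of all such genes were higher by as much. Of the 17 that passed without the D7 libraries 1 was, *Col1a1*, against 0.679% of all such genes. The 6 were *Col1a1* (1.75), *Col1a2* (1.33), *Col8a1* (1.19), *Col12a1* (1.18), *Col3a1* (1.13) and *Col5a2* (1.00). The ratio of *Col1a1* FPKM was 3.40, on 13473 estimated reads in OE-D7 and 4053 in Con-D7. The largest difference in the other direction was *Col2a1*, at −0.61, followed by *Col9a3* at −0.49. With 1 library in each group this has no replicate check.

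Over the 28 genes the median log2 ratio of OE to Con was 0.48 in the D7 pair, against 0.03 over all genes, 0.02 in pair 1 and −0.03 in pair 2. Of the 28, 11 had passed the filter only through the D7 libraries. The filter thus enters this median, which was not taken without them. The median moved with the pseudocount, to 0.60 with 0.1 and 0.38 with 1, and was 0.16 over all collagen genes above 0 in either D7 library.

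**Figure D4:**
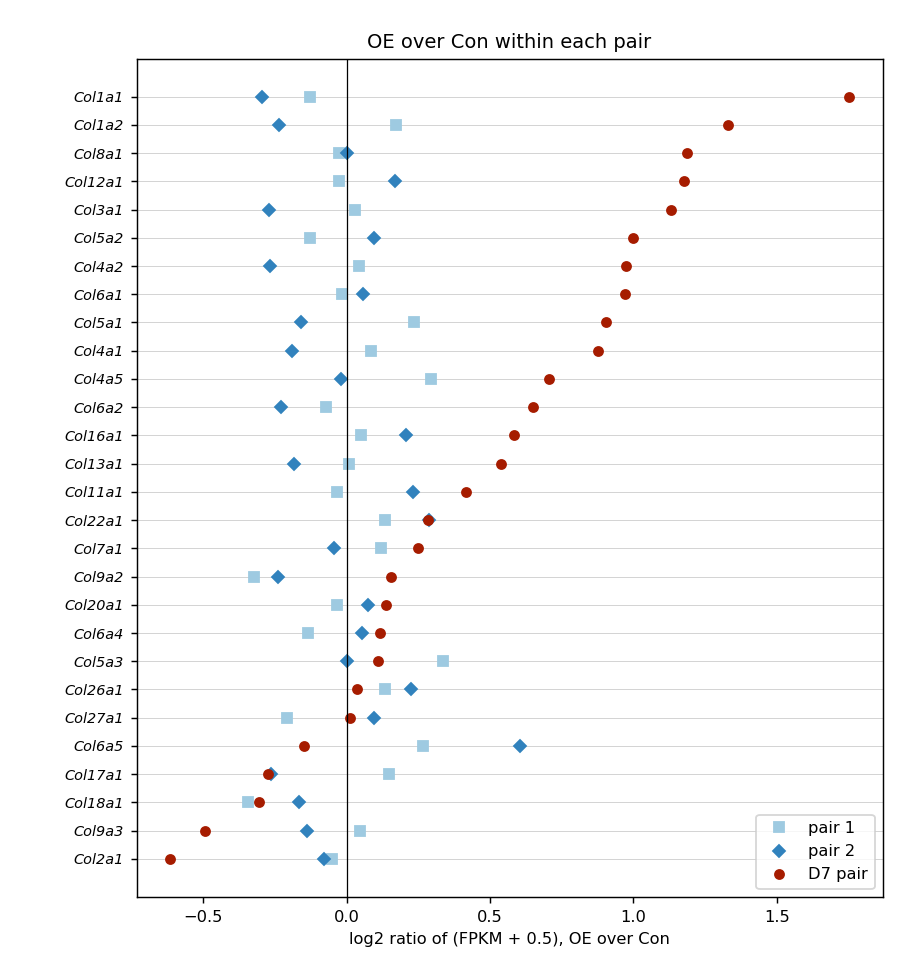
Log2 ratio of FPKM + 0.5 in OE over Con within pair 1, pair 2 and the D7 pair for the 28 collagen genes that passed the filter, ordered by the D7 pair. The D7 points reach 1.75 for *Col1a1*, while those of pairs 1 and 2 lie on both sides of 0.

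Whether the OE difference in the D7 pair exceeded that of pairs 1 and 2 was tested as an interaction. Without the block 0 collagen genes passed by edgeR, against 0% of all genes higher, and 1 was higher at an unadjusted p under 0.05. DESeq2 called 0 collagen genes, and called 1 of all genes higher and 1 lower. With the replicate block, a fit added after the data were seen, 5 of 28 were higher and 0.934% of all genes were. They were *Col1a1* with a log2 difference of 2.10 (SE 0.17, adjusted p = 5.3e-08), *Col4a2* with 1.16 (SE 0.18, adjusted p = 0.00056), *Col4a1* with 0.97 (SE 0.15, adjusted p = 0.00063), *Col5a1* with 0.90 (SE 0.17, adjusted p = 0.0050) and *Col1a2* with 1.56 (SE 0.40, adjusted p = 0.046). DESeq2 with the block called 3 of them, *Col1a1*, *Col4a1* and *Col4a2*, and limma with the block called 0. Without Con-1, edgeR without the block called *Col1a1* (2.48, SE 0.44, adjusted p = 0.018). The block draws the spread from pairs 1 and 2, so the D7 pair, which is 1 library of each genotype, is assumed to vary like them.

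Genes that help make and handle collagen were followed by lists, whose counts stand beside the 6.77% of all genes that rose and the 3.06% that fell. Of 15 tested for synthesis and folding, 2 rose in the D7 pair. *Serpinh1*, the collagen chaperone, was at 11.22, 19.07, 12.51 and 18.42 FPKM in Con-1, Con-2, OE-1 and OE-2, 73.65 in Con-D7 and 148.41 in OE-D7 (log2 fold change 2.80, SE 0.30, edgeR adjusted p = 0.0086). *P4hb*, a subunit of prolyl hydroxylase, was at 150.9 to 171.98 FPKM in the 4 libraries and at 225.58 and 279.78 in the D7 pair (0.67, SE 0.14, adjusted p = 0.045). The prolyl hydroxylase chain *P4ha1*, named after its values were seen, was at 11.65 and 19.8 FPKM in Con-1 and OE-1, 69.43 and 70.54 in Con-2 and OE-2, and 56.71 and 60.01 in the D7 pair, so it separated library 1 from the rest. Of 7 secretion genes 1 rose and 0 fell. *Creb3l1*, a transcription factor of secretory cells, rose from 11.02 to 14.18 FPKM in the others to 19.25 and 21.75 (0.70, SE 0.15, adjusted p = 0.042). The most abundant of the list, *Tmem39a* and the vesicle coat gene *Sec23a*, had differences of −0.31 and 0.45 on the log2 scale, and neither passed.

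Of 9 genes for processing and cross-linking, 2 rose and 1 fell. *Bmp1*, the protease that trims procollagen ends, was at 1.66, 2.38, 2.08 and 2.70 FPKM in Con-1, Con-2, OE-1 and OE-2, then 12.21 in Con-D7 and 22.59 in OE-D7 (log2 fold change 3.02, SE 0.25, edgeR adjusted p = 0.0049). *Loxl4*, of the lysyl oxidase family that cross-links collagen, rose by 2.06 (SE 0.41, adjusted p = 0.038). *Pcolce*, which enhances *Bmp1* activity, went the other way, at 121.22, 107.89, 118.97 and 108.13 FPKM and 28.39 and 37.68 in the D7 pair, and fell by 1.80 (SE 0.17, adjusted p = 0.0062). The enhancer and the protease thus had opposite signs without overlap of the groups.

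**Figure D5:**
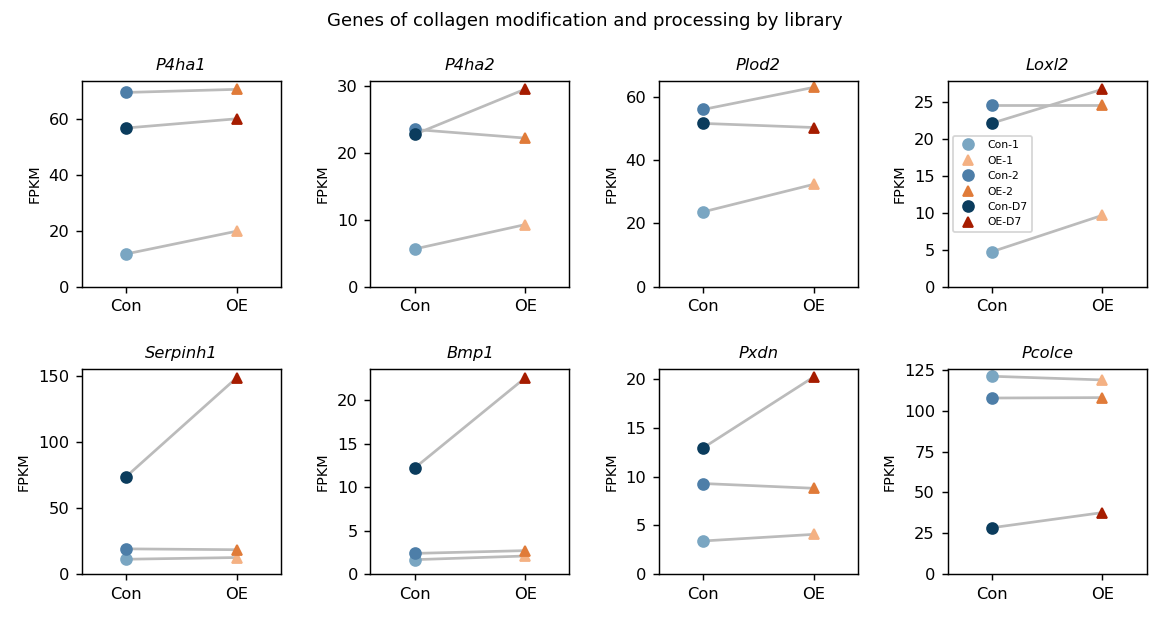
FPKM of 8 genes of collagen modification and processing in Con and OE, with a line joining each pair and a linear axis from 0 in each panel; *P4ha1*, *P4ha2*, *Plod2*, *Loxl2* and *Pxdn* were chosen after their values were seen. *Serpinh1* and *Bmp1* are highest in the D7 pair, *Pcolce* is lowest there, and *P4ha1* is lowest in pair 1.

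Of 7 genes for collagen degradation, 3 rose and 1 fell. The gelatinase *Mmp9* rose by 3.16 (SE 0.28, edgeR adjusted p = 0.0057), and the inhibitors *Timp2* and *Timp3* rose by 2.31 and 2.20 (adjusted p = 0.013 and 0.031). *Timp1*, a further inhibitor, fell by 1.27 (SE 0.16, adjusted p = 0.013), from 25.36 to 32.55 FPKM in the others to 11.21 and 12.1. Of 5 collagen receptors 2 rose, the integrin chain *Itga11* by 6.13 (SE 0.48, adjusted p = 0.0047) and the receptor kinase *Ddr1* by 0.77 (SE 0.11, adjusted p = 0.016). *Itga11* had passed the filter only through the D7 libraries, where 51.1% of all such genes rose.

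Of 15 other basement membrane genes, 3 rose and 1 fell, where 6.77% and 3.06% of all genes did. Laminin chains moved both ways, as *Lama4* and *Lamb1* rose by 2.42 and 1.38 (edgeR adjusted p = 0.028 and 0.0073), while *Lama1*, an early embryonic laminin chain, fell from 10.33 to 12.1 FPKM in the others to 3.21 and 5.04 (adjusted p = 0.016). *Agrn*, a heparan sulphate proteoglycan, rose by 0.82 (adjusted p = 0.025). Of the 3 that rose, *Lama4* had passed the filter only through the D7 libraries, where 51.1% of all such genes rose. Of 2 small leucine-rich proteoglycans tested, *Bgn* rose by 3.61 (SE 0.45, adjusted p = 0.012) and *Omd* did not pass (−0.37, SE 0.52, adjusted p = 0.67).

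Markers of other cells moved along with the collagen genes in the D7 pair, and their part in the collagen result was not tested. The counts of markers also stand beside the 6.77% of all genes that rose and the 3.06% that fell. Of 8 fibroblast or feeder markers tested 4 rose, *Postn*, *Twist2*, *Cd248* and *Fbln2*, and the summed list was 35.43 to 62.55 FPKM in the 4 libraries and 40.27 and 53.36 in the D7 pair. Of these, *Postn*, *Twist2* and *Cd248* had passed the filter only through the D7 libraries, where 51.1% of all such genes rose. *Thy1*, the most abundant of the list, went the other way, at 30.84 to 52.99 FPKM in the 4 libraries and 22.95 and 20.97 in the D7 pair (log2 fold change −0.95, SE 0.23, edgeR adjusted p = 0.059). The fibroblast markers *Lum*, *Dcn* and *Fap* were at most 0.21 FPKM in any library. Smooth muscle markers rose for 3 of 4 tested, *Acta2*, *Tagln* and *Myl9*, with sums of 5.6 to 8.58 FPKM and then 138.37 in Con-D7 and 255.02 in OE-D7. Trophectoderm markers rose for 5 of 7, *Krt8*, *Krt18*, *Hand1*, *Gata3* and *Cdx2*, from sums of 26.3 to 48.64 FPKM to 654.63 and 1165.48. Here *Gata3* and *Cdx2* had passed the filter only through the D7 libraries. Primitive and parietal endoderm markers rose for 2 of 6, *Gata4* and *Dab2*, with sums of 5.27 to 7.96 FPKM and then 12.99 and 18.64. Of the 6, 4 had a log2 fold change above 0. *Sox7* was at 0.36 to 0.86 FPKM and then 0.32 in Con-D7 and 0.43 in OE-D7. *Srgn* was at 1.38 to 3.36 FPKM and then 2.33 and 1.75. Cartilage markers summed to 2.66 to 5.16 FPKM and then 5.62 and 4.68, endothelial markers to 6.51 to 6.91 and then 7.69 and 6.93, and neither had a call by edgeR without the block, where *Kdr* alone was below an unadjusted p of 0.05 (0.014, and adjusted p = 0.0085 with the block). Neural markers rose for 1 of 3, *Nes*, and summed to 52.87 to 107.16 FPKM and then 38.02 and 41.25. Of 10 ESC markers 4 fell, against 3.06% of all genes, and 0 rose. Their sums were 4186.96 to 4889.06 FPKM in the 4 libraries and then 3998.14 and 3824.73. *Dppa5a*, the most abundant of the list, went the other way without passing. It was at 1238.34 to 1701.12 FPKM in the 4 libraries and at 2083.11 and 2267.56 in the D7 pair. For the 4 that fell the log2 fold change was −1.40 for *Utf1*, −1.23 for *Esrrb*, −1.20 for *Klf4* and −0.88 for *Pou5f1* (edgeR adjusted p = 0.018, 0.0062, 0.011 and 0.020).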

How the data were processed

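Messenger RNA of 6 libraries was sequenced on BGISEQ-500. The authors mapped reads with Bowtie2 to mm10 and used RSEM, and the estimated counts they deposited per gene are not normalized. HISAT and GRCm38.p6 are named in the submitters' processing notes, and versions are not given in the sources used here. FPKM values, scaled by length and depth and rounded to 2 decimals, were deposited by the authors too. The D7 count columns are headed as averages. Of 19489 genes, 26 symbols turned into dates were restored from gene numbers.

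Estimated counts were rounded and tested with edgeR 4.0.16 (quasi-likelihood F test, TMM) in R 4.3.3 over all genes whose mean reached 0.5 FPKM, with Benjamini-Hochberg adjustment and a threshold of 0.05. D7 was compared with genotype as a term. Log2 ratios of FPKM used a pseudocount of 0.5. Alternatives were DESeq2 1.42.0, its size factors in edgeR, limma 3.58.1 on log2(FPKM + 0.5), other filters, a replicate block, and leaving out each library. Scripts were tested on simulated data. Counting error limits genes with few reads.

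Collagen genes averaging 5 FPKM or more, or with a call, were given in every library. From each list of genes that handle collagen, up to 4 past the threshold in D7 with the largest change were named, and where 1 passed also the 2 with the highest mean FPKM. Cell type markers were given by counts and sums, and their called genes were named. The collagen genes and lists were chosen with earlier results of these data known.

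Deviations of same-numbered Con and OE libraries from their group means correlated across 12565 genes, with r of 0.871, 0.745 and 0.881. Those of differently numbered libraries were at most −0.0252, which centring on the group means favours. Without that centring, the change from Con-1 to Con-2 correlated with that from OE-1 to OE-2 at r of 0.828. The numbers were taken to pair the libraries. This pairing comes from the data, and no source states shared handling.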

Additional observations from a re-analysis of the deposited data

Results flagged for a closer look

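For 5 collagen genes the difference between OE and Con was larger in the D7 pair than in pairs 1 and 2 by edgeR's test of the interaction with the replicate block. The log2 difference was 2.10 for *Col1a1*, 1.56 for *Col1a2*, 0.97 for *Col4a1*, 1.16 for *Col4a2* and 0.90 for *Col5a1*. Without the block none of the 5 passed (adjusted p = 1.00 for each), and *Col1a1* alone had an unadjusted p under 0.05, at 0.031. In FPKM, OE exceeded Con in the D7 pair for all 5 and was below Con in pair 2 for all 5. In pair 1 OE was below Con for *Col1a1* (ratio 0.87) and above for *Col1a2* (1.62), *Col4a1* (1.06), *Col4a2* (1.04) and *Col5a1* (1.20). The D7 pair holds 1 library of each genotype, and the cause was not tested.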

How the results depend on the processing

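The count of collagen genes higher in the D7 pair was 16 with edgeR, DESeq2, DESeq2's size factors in edgeR and limma. The shares of all genes called higher were 6.77%, 10.9%, 6.79% and 6.94%. The collagen count was 20 with no filter (5.95% of all genes) and 6 with a mean FPKM of at least 2. With 1 library without the D7 label left out it was 9 to 18 (2.23% to 11.7% of all genes). It fell to 0 without OE-D7 and 1 without Con-D7, fits that leave 1 D7 library, assumed to vary like the others. With the replicate block, which judges D7 by the spread within pairs alone, it was 21, and 20 with DESeq2 or limma in place of edgeR. Among all genes 25.6% were then higher with edgeR, 20.6% with DESeq2 and 24.3% with limma. The 6 at a mean FPKM of at least 2 were out of 9 tested, where 6.24% of all genes were higher. Collagen genes lower in D7 numbered 0, except 4 of 29 against libraries 2 alone, where 1829 of 13992 genes were lower. OE against Con gave 0 collagen genes under every alternative, with libraries 1 and 2 or with all 3 pairs. The main edgeR fits called 0 of all genes, *Dppa3* included, so they cannot tell whether collagen genes changed. The log2 fold change of *Col18a1* in libraries 1 and 2 ran from −0.71 to 0.17 with 1 library left out, and reversed without Con replicate 1 in this fit without pairs, while OE was below Con within every pair. The interaction gave 0 genes without the block, 5 with the replicate block, 3 with DESeq2 and the block, and 0 to 1 with 1 library left out (1 without Con-1). The median log2 ratio in the D7 pair was 0.60, 0.38 and 0.16 under its alternatives. The causes were not tested, apart from the fewer genes or libraries that an alternative leaves. Of 1849 values recomputed, 1389 kept direction and side of the threshold or moved little, 180 no longer passed, 30 newly passed, 1 reversed and the rest moved. Genes below 0.5 FPKM rest on few reads.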
